A study of Mus musculus with 7 samples.

Results

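Schwann cells ensheath the axons of peripheral nerves, and brown adipose tissue holds them because it is densely supplied by sympathetic fibres, which drive heat production. The genes described here are 8 markers of these cells and of nerve: Sox10, Mbp, Pmp22, Prx, Mag, S100b, Ngfr and Ncam1. They were chosen by name, from what they are known to mark, with earlier results of these data known. Each was looked up by symbol among the 53715 genes of the count table. All 8 were found, each under 1 identifier, and all 8 passed the filter on low counts along with 15123 genes in all.

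RNA was taken from interscapular brown fat, a heat-producing depot, in 10-week-old males of the C57BL/6J strain. One genotype was Wild-type (WT) and the other PGAM5 KO (here KO), without the mitochondrial phosphatase PGAM5; no other allele or agent is given for either. The labels list 3 WT and 4 KO samples. Columns for 3 WT and 3 KO libraries were used, and KO 4 was not analysed here. How the knockout was made, whether WT mice were littermates and whether each sample is a separate animal is not given in the sources. The p-values therefore measure the spread between these samples, which may be technical. The tissue is bulk fat, so fewer cells of a type and less RNA per cell cannot be told apart.

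Each sample gave 1 library of poly(A)-selected RNA, with 18034204 to 33617762 counts. Levels are CPM, the share of a library's counts on a per-megacount scale, corrected by TMM factors, which correct for differences in library composition. Pgam5 checked the labels, at 5.47 to 8.14 CPM in WT and 0.0455 to 0.537 CPM in KO (log2 -4.84, SE 0.59, edgeR adjusted p = 0.0243). Brown adipocyte genes were abundant, with Cidea at 1376 to 2010 CPM and Ucp1 at 1638 to 2853 CPM in WT and 3765 to 5974 CPM in KO (edgeR adjusted p = 0.310). On the first principal component WT 2 and KO 3 lay at opposite ends. They had the highest and the lowest share of mitochondrial genome counts, 43.0% and 19.7%, against 28.2% to 34.1% in the others. Both were extreme in either direction: WT 2 was lowest for 27.1% and highest for 27.2% of tested genes, and KO 3 lowest for 26.6% and highest for 26.5%.

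The 8 genes have different jobs. SOX10 is the transcription factor that Schwann cells need at every stage, and it drives myelin genes. MBP and PMP22 are proteins of compact myelin, the tightly wound membrane around larger axons. Periaxin, the product of Prx, anchors the Schwann cell membrane to the surrounding matrix, and MAG sits on the inner membrane that faces the axon. S100B is a calcium-binding protein used as a Schwann cell stain, and in mice it is also made by brown adipocytes and promotes their sympathetic supply. NGFR, the low-affinity neurotrophin receptor p75, and the adhesion molecule NCAM1 mark Schwann cells that do not form myelin. Most sympathetic axons in fat are of that unmyelinated kind.

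The starts of Mag and Prx are shown because they encode proteins of myelin-forming cells and the RefSeq table (GRCm38.p6) held a sequence for them. Of the 8 members, 5 had an entry there and Mbp, Sox10 and Ncam1 did not. Each line gives the 250 bases before the start site, 5′ to 3′, and capitals mark the letters ACAAAG or ACAATG on either strand, a core that SOX factors bind.
Mag: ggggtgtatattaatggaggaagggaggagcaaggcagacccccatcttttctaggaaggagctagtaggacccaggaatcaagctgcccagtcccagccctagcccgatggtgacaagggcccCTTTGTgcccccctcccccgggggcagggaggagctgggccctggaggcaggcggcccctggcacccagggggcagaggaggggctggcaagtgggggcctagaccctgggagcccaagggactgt
Prx: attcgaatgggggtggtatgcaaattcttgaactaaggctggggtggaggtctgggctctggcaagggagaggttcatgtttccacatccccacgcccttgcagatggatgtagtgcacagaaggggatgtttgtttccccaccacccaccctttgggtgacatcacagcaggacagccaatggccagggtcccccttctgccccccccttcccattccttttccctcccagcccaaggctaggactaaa
The Mag window is chr7:30914864-30915113 on the minus strand and holds 1 match, ACAAAG on the reverse strand, starting 126 bases before the start site. The Prx window is chr7:27499074-27499323 on the plus strand and holds 0 matches. The 250-base windows of S100b, Pmp22 and Ngfr also held 0, so 1 of 5 members had a match, against 25.2% of all 32851 windows in the table. A match of this kind is a description of the letters only.

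Per kilobase of merged exon length the 8 genes spanned a wide range of levels. S100b was highest at 44.6 ± 12.3 CPM per kb (SD, n = 6 libraries), followed by Pmp22 at 21.2 ± 2.58 and Mbp at 4.51 ± 0.866. Prx came next at 0.632 ± 0.322 CPM per kb, then Sox10 at 0.434 ± 0.183, Ngfr at 0.336 ± 0.203, Mag at 0.14 ± 0.118 and Ncam1 at 0.105 ± 0.0476. S100b, Pmp22, Mbp and Prx kept this order without overlap of their ranges over the 6 libraries. Below that the ranges of neighbours overlapped. Within libraries, Prx stood above Sox10 in 6 of 6, Sox10 above Ngfr in 5 of 6, Ngfr above Mag in 5 of 6 and Mag above Ncam1 in 3 of 6. Length comes from GENCODE M21, whose Mbp entry is a later version than the one in the count table, and the authors' counting may have used other exons.

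The comparison of KO with WT asks how loss of PGAM5 changes these genes in brown fat. Of the 8 members, 0 passed the edgeR quasi-likelihood test at an adjusted p of 0.05, where 0.0595% of all tested genes passed (0.0198% higher and 0.0397% lower in KO). At an unadjusted p under 0.05 edgeR called 0 of 8, against 11.8% of all genes, and DESeq2 and limma-voom also called 0 of 8 at either threshold; DESeq2 called 1.12% of all genes at its adjusted threshold. WT and KO libraries overlapped for all 8 members, whereas 19.5% of all genes had groups that did not overlap (10.1% with KO above WT and 9.39% with KO below). The fitted difference was positive for 7 of 8 members and negative for S100b, with a median log2 fold change of 0.52 (KO minus WT), beside -0.0019 for all 15123 genes. In the plot of members by library the groups overlap in every panel.

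**Figure D1:**
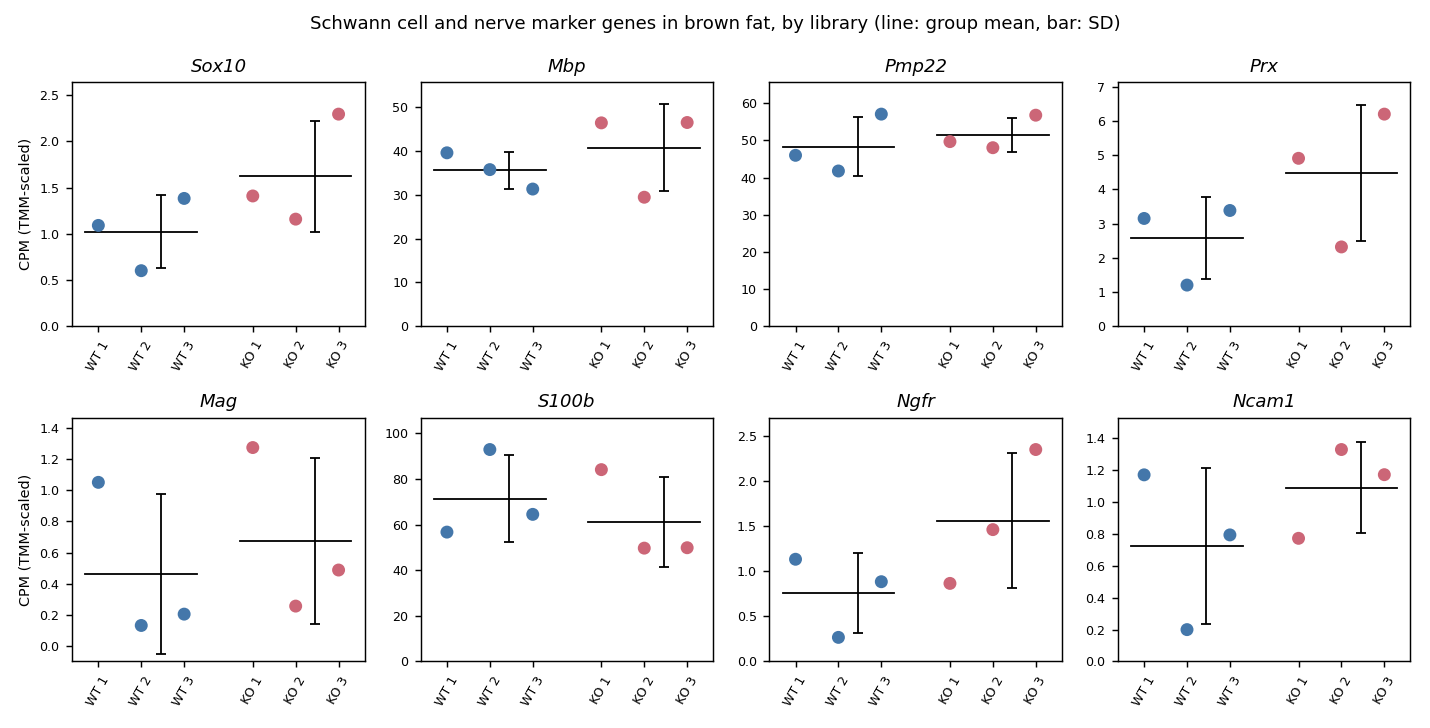
Level of each of the 8 genes in CPM (vertical axis, TMM-scaled, own scale per panel) in each library (horizontal axis; blue WT, red KO), with the group mean as a line and its SD as a bar. For every gene at least 1 KO library lies within or below the WT range; WT 2 is the lowest library in 6 panels and KO 3 the highest in 4.

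Sox10 (ENSMUSG00000033006.10), the gene of the Schwann cell transcription factor, lies on chromosome 15 from 79154908 to 79165240 (minus strand, mm10). Reads assigned to it numbered 27, 9 and 47 (WT 1 to WT 3) and 31, 27 and 47 (KO 1 to KO 3). Its level was 1.09, 0.600 and 1.38 CPM in WT and 1.41, 1.16 and 2.30 CPM in KO. WT 2 was low and KO 3 high, and the other 4 libraries lay between 1.09 and 1.41 CPM. The log2 fold change was 0.62 (SE 0.46, edgeR adjusted p = 0.570), with a 95% interval from -0.40 to 1.65. It ran from 0.29 without KO 3 to 0.90 without WT 3, and was 0.05 without both WT 2 and KO 3.

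Mbp (ENSMUSG00000041607.16), which encodes myelin basic protein, lies on chromosome 18 from 82475146 to 82585637 (plus strand). The same gene gives rise to golli transcripts, known from lymphoid tissue, and counts per gene do not separate these from myelin transcripts. Mbp counts were 980, 536 and 1064 (WT) and 1021, 686 and 952 (KO), or 39.6, 35.8 and 31.3 CPM against 46.4, 29.4 and 46.5 CPM. KO 1 and KO 3 were the highest libraries and KO 2 the lowest. Its log2 difference was 0.20 (SE 0.21, edgeR adjusted p = 0.688), and its 95% interval ran from -0.26 to 0.66, a fold of 0.833 to 1.58. It was 0.39 without KO 2 and 0.09 without KO 3.

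Pmp22 (ENSMUSG00000018217.12), the gene of a compact myelin protein that is also made by many non-neural cells, lies on chromosome 11 from 63128982 to 63159547 (plus strand). Its counts were 1138, 626 and 1939 (WT) and 1092, 1119 and 1162 (KO). Its level was the steadiest of the 8 genes, at 46.0, 41.8 and 57.1 CPM in WT and 49.7, 48.0 and 56.8 CPM in KO. The highest library was 1.37 times the lowest, and the KO values lay inside the WT range. On the log2 scale KO minus WT was 0.09 (SE 0.17, edgeR adjusted p = 0.829), with a 95% interval from -0.29 to 0.48, a fold of 0.817 to 1.39.

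Prx (ENSMUSG00000053198.13) lies on chromosome 7 from 27499324 to 27520214 (plus strand). Its counts were 78, 18 and 115 (WT) and 108, 54 and 127 (KO). Its level was 3.15, 1.20 and 3.38 CPM in WT and 4.91, 2.32 and 6.21 CPM in KO, a mean of 2.58 ± 1.20 against 4.48 ± 1.98 CPM (SD, n = 3 each). KO 1 and KO 3 were above every WT library, while KO 2 was below WT 1 and WT 3. The log2 fold change was 0.77 (SE 0.46, edgeR adjusted p = 0.503) and it was 0.14 without both WT 2 and KO 3. Leaving out KO 2 gave 1.08, with an unadjusted edgeR p of 0.0374 and an adjusted p of 0.521. Its unadjusted p was also under 0.05 with no filter (0.0322), with an adjusted p of 0.385. The antisense gene Gm15541 overlaps 300 exon bases of Prx and had 76 counts in all against 500 for Prx. The kit marks strand, but whether the counting used it is not stated in the sources.

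Mag (ENSMUSG00000036634.15) lies on chromosome 7 from 30899176 to 30914873 (minus strand) and was close to the limit of detection. Its counts were 26, 2 and 7 (WT) and 28, 6 and 10 (KO), or 1.05, 0.133 and 0.206 CPM against 1.27, 0.258 and 0.489 CPM. WT 1 and KO 1 were the 2 high libraries, and the others were low in both groups. The 2 counts in WT 2 carry an exact Poisson 95% interval of 0.242 to 7.22 counts, which covers counting error only. Its log2 difference, 0.50 (SE 0.83, edgeR adjusted p = 0.808), was -0.34 without KO 1 and 1.89 without WT 1, so a single library set its direction. Its 95% interval ran from -1.37 to 2.37.

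S100b (ENSMUSG00000033208.7) lies on chromosome 10 from 76253853 to 76261159 (plus strand) and was the only member with a negative fitted difference. Its counts were 1403, 1392 and 2190 (WT) and 1848, 1157 and 1020 (KO). Its level was 56.7, 92.9 and 64.4 CPM in WT and 84.0, 49.7 and 49.8 CPM in KO. The high libraries, WT 2 and KO 1, were 1 of each group. Its log2 difference was -0.22 (SE 0.26, edgeR adjusted p = 0.725). Dropping WT 2 moved it to 0.012, and dropping WT 2 together with KO 3 to 0.14. Dip2a, on the opposite strand, overlaps the gene but none of its exons.

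Ngfr (ENSMUSG00000000120.6) lies on chromosome 11 from 95568818 to 95587735 (minus strand) and had the largest fitted difference of the 8. Its counts were 28, 4 and 30 (WT) and 19, 34 and 48 (KO), or 1.13, 0.267 and 0.883 CPM against 0.864, 1.46 and 2.35 CPM. KO 2 and KO 3 were above every WT library and KO 1 was below WT 1 and WT 3. The log2 fold change was 0.98 (SE 0.57, edgeR adjusted p = 0.494), with a 95% interval from -0.30 to 2.26. It was 1.34 without WT 1, 0.56 without KO 3 and 0.22 without both WT 2 and KO 3.

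Ncam1 (ENSMUSG00000039542.16) lies on chromosome 9 from 49502136 to 49798925 (minus strand). Its counts were 29, 3 and 27 (WT) and 17, 31 and 24 (KO), or 1.17, 0.200 and 0.795 CPM against 0.773, 1.33 and 1.17 CPM. WT 2 was low and the other 5 libraries overlapped. Its log2 difference, 0.55 (SE 0.58, edgeR adjusted p = 0.697), was 0.16 without WT 2 and 1.03 without WT 1. The antisense gene Gm11149 overlaps 417 of its exon bases and had 3 counts in all. NCAM1 is also made by muscle and by other neural cells. Summed skeletal muscle markers ran from 84.3 to 122 CPM in WT and from 61.3 to 105 CPM in KO, and their part in Ncam1 was not tested.

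Leaving out libraries moved the members unequally. WT 2 was the lowest library for 6 of 8 members (Sox10, Pmp22, Prx, Mag, Ncam1 and Ngfr) and KO 3 the highest for 4 (Mbp, Sox10, Prx and Ngfr). Over all tested genes the shares were 27.1% lowest in WT 2 and 26.5% highest in KO 3. The median log2 fold change of the 8 was 0.18 without WT 2, 0.37 without KO 3 and 0.13 without both. Without both, 7 of 8 were still positive, but with S100b now above 0 and Pmp22 below it (-0.075). WT 2 also had the highest share of mitochondrial counts and KO 3 the lowest. S100b did not follow the other members there, as it was highest in WT 2 and near its lowest in KO 3, and Mbp was mid-range in WT 2. The part of the mitochondrial share in the fold changes was not tested.

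**Figure D2:**
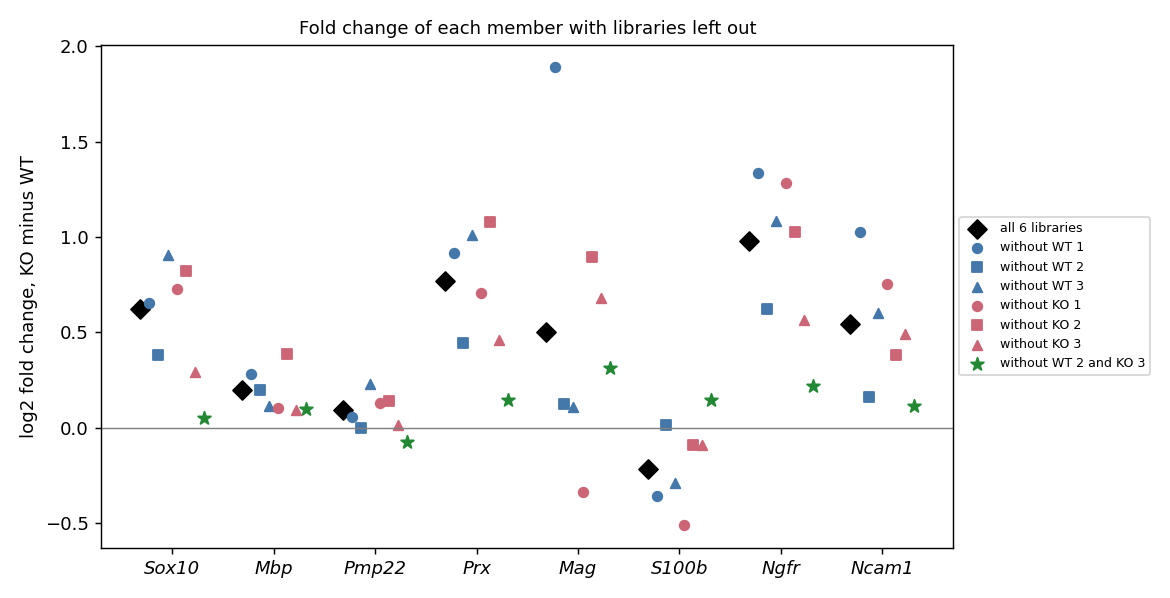
Log2 fold change, KO minus WT (vertical axis), of each member (horizontal axis) with all 6 libraries (diamond), with 1 library left out (blue WT, red KO) and without both WT 2 and KO 3 (star). Without both, the stars lie between -0.075 and 0.31, and Mag spreads most, from -0.34 to 1.89.

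Genes of the same cells that are not members were read from lists chosen with earlier results of these data known. Across 6 nerve lists with 69 genes, 44 passed the count filter. Of these 44, edgeR called 0 at an adjusted p of 0.05, as did DESeq2 and limma-voom. At an unadjusted p under 0.05 edgeR called 7 higher (15.9%) and 0 lower, where 6.3% of all genes were higher and 5.49% lower. In either direction the share of all genes was 11.8%. DESeq2 called 4 of the 44 at that level, all higher. Its share of 3.66% in either direction covers all 53715 identifiers, most of them under the count filter, so it is not a like background. On the filtered genes alone DESeq2 called 7 of the 44, all higher, against 12.4% in either direction. With limma-voom 5 were called, all higher, against 11.0% of tested genes in either direction. Counted in either direction, the limma-voom count is near its background. The counts of edgeR and of DESeq2 on the filtered genes are a little above theirs. The fitted difference was positive for 28 of 44, with a median of 0.23. Without both WT 2 and KO 3 it was positive for 24 of 44, with a median of 0.02, and 2 were higher and 1 lower at an unadjusted p under 0.05 in edgeR, where 8.49% of all genes passed in that fit.

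Other myelin and Schwann cell structure genes gave 13 tested of 14 listed, 9 of them positive, with a median log2 fold change of 0.64 and 0 past the adjusted threshold. Gldn, which encodes gliomedin, a Schwann cell protein that helps to assemble nodes of Ranvier, was at 5.58, 1.13 and 2.62 CPM in WT and 7.59, 2.70 and 35.9 CPM in KO. KO 3 was far above the other libraries, and KO 2 was below WT 1. Gldn had a log2 difference of 2.28 (SE 0.84, edgeR adjusted p = 0.385). Without KO 3 it was 0.70, and without both WT 2 and KO 3 it was 0.34. Cnp, which encodes an enzyme of myelin-forming cells, was at 5.09, 2.53 and 4.86 CPM in WT and 5.28, 5.45 and 10.3 CPM in KO (log2 0.74, SE 0.36, edgeR adjusted p = 0.442). Lgi4, which encodes a protein that Schwann cells secrete and need for myelination, was at 1.29, 1.07 and 1.35 CPM in WT and 1.64, 1.59 and 2.003 CPM in KO (log2 0.48, SE 0.36, edgeR adjusted p = 0.577). All 3 KO values exceeded the WT values for both, for Cnp only narrowly in KO 1. Groups did not overlap for 3 of 13 genes in the list, against 10.1% of all genes with KO above WT. The genes of the list below 0 were Gjb1 (log2 -0.98, SE 0.56, edgeR adjusted p = 0.485), Mal (-0.46, SE 0.38, edgeR adjusted p = 0.604), Dhh (-0.24) and Drp2 (-0.10). Cnp, Lgi4 and the genes below 0 were picked out after their values were seen.

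Regulators and receptors of Schwann cells did not share this direction, with 1 of 8 tested genes positive of 12 listed and a median of -0.17. The receptor genes Erbb3 (log2 -0.24, SE 0.30, edgeR adjusted p = 0.742) and Adgrg6 (-0.32, SE 0.37, edgeR adjusted p = 0.718) were below 0. Erbb2, also a receptor gene, was the 1 positive gene (0.40, SE 0.32, edgeR adjusted p = 0.592). These receptor genes were picked out after their values were seen. The list also includes genes that many brown fat cells express, such as Wwtr1 and Zeb2, its members of highest CPM. Wwtr1, which encodes the Hippo pathway coactivator TAZ, was at 66.0, 55.7 and 63.4 CPM in WT and 48.9, 64.2 and 58.4 CPM in KO (log2 -0.11, SE 0.17, edgeR adjusted p = 0.785). Zeb2, a transcriptional repressor gene, was at 71.1, 74.8 and 44.3 CPM in WT and 52.7, 45.9 and 52.1 CPM in KO (log2 -0.33, SE 0.21, edgeR adjusted p = 0.517). The groups overlapped for both. Yap1, which encodes the other Hippo pathway coactivator and was picked out after its values were seen, was at 45.5, 47.3 and 52.5 CPM in WT and 44.9, 41.9 and 37.2 CPM in KO. All 3 KO values were below the WT values, the single such case among the 44 nerve genes (log2 -0.23, SE 0.15, edgeR adjusted p = 0.538). In this list, 0 of 8 passed at an unadjusted p under 0.05 in edgeR.

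Genes of non-myelinating Schwann cells gave 5 tested of 8, all 5 positive, with a median of 0.32, and 0 passed at either threshold in edgeR. For Cadm4, an adhesion molecule gene picked out after its values were seen, the groups did not overlap. It was at 2.95 to 3.56 CPM in WT and 3.78 to 5.62 CPM in KO (log2 0.60, SE 0.27, edgeR adjusted p = 0.426). That made 1 of 5 tested genes apart, against 10.1% of all genes with KO above WT. Scn7a, a sodium channel gene of these cells, was at 24.8, 18.1 and 23.8 CPM in WT and 21.3, 24.3 and 26.1 CPM in KO (log2 0.10, SE 0.18, edgeR adjusted p = 0.821). Matn2, which encodes a matrix adaptor protein, was at 6.02, 3.67 and 6.92 CPM in WT and 4.05, 5.75 and 11.2 CPM in KO (log2 0.32, SE 0.39, edgeR adjusted p = 0.731). Its difference turned negative without KO 3 (-0.19), and without both WT 2 and KO 3 Scn7a stood at -0.09 and Matn2 at -0.40.

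Sympathetic axon genes were mostly below the filter, as 3 of 14 were tested. Of these 3, 2 were positive and 1 was negative, with a median of 0.78. Th and Dbh, enzymes of noradrenaline synthesis, and Npy, a co-transmitter, had 0 counts in all 6 libraries. A count of 0 allows up to 0.0883 CPM in the deepest library and 0.200 CPM in the shallowest, from 3 counts per library. The cell bodies of sympathetic neurons, which hold most of their mRNA, lie in ganglia outside the fat pad. Slc18a2, the vesicular monoamine transporter gene, was at 0.929, 0.734 and 1.35 CPM in WT and 1.64, 2.32 and 1.91 CPM in KO (log2 0.93, SE 0.40, edgeR adjusted p = 0.419). Stmn2, a growth-associated gene of neurons, was at 1.82, 1.27 and 2.21 CPM in WT and 2.68, 3.13 and 3.37 CPM in KO (log2 0.78, SE 0.33, edgeR adjusted p = 0.419). Neither gene overlapped between the groups, neither passed, and both kept a positive difference without both WT 2 and KO 3 (0.79 and 0.53). That made 2 of 3 tested genes apart, against 10.1% of all genes with KO above WT. The third tested gene went the other way, with groups that overlapped (log2 -0.38, SE 0.37, edgeR adjusted p = 0.659). SLC18A2 is also made by mast cells, and those were not tested here.

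Neurotrophins, their receptors and other signals to nerves gave 11 tested of 16, 8 of them positive, with a median of 0.20. Gfra2, the receptor subunit for neurturin, had the smallest p of the 44 nerve genes. It was at 1.25, 1.27 and 1.18 CPM in WT and 2.18, 2.70 and 2.83 CPM in KO, so that every KO library lay well above every WT library. The log2 difference, 1.06 (SE 0.33), missed the threshold (edgeR adjusted p = 0.350) and ran from 0.99 to 1.17 with each library left out. Of the perineurium list, 4 of 6 genes were tested, 3 were positive and the median was 0.46. Slc2a1, the glucose transporter GLUT1 of the nerve barrier and of other cells, was at 3.84, 3.27 and 4.83 CPM in WT and 5.82, 6.14 and 6.55 CPM in KO (log2 0.62, SE 0.25, edgeR adjusted p = 0.405). Itgb4, the integrin subunit beta-4 of perineurium and Schwann cells, was at 3.88, 1.20 and 2.47 CPM in WT and 3.91, 3.99 and 8.50 CPM in KO (log2 1.09, SE 0.46, edgeR adjusted p = 0.416). The groups did not overlap for either, and Itgb4 dropped to 0.32 without both WT 2 and KO 3. Over the 44 tested nerve genes, groups did not overlap for 9 with KO above WT and 1 with KO below. The shares of all genes were 10.1% and 9.39%.

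**Figure D3:**
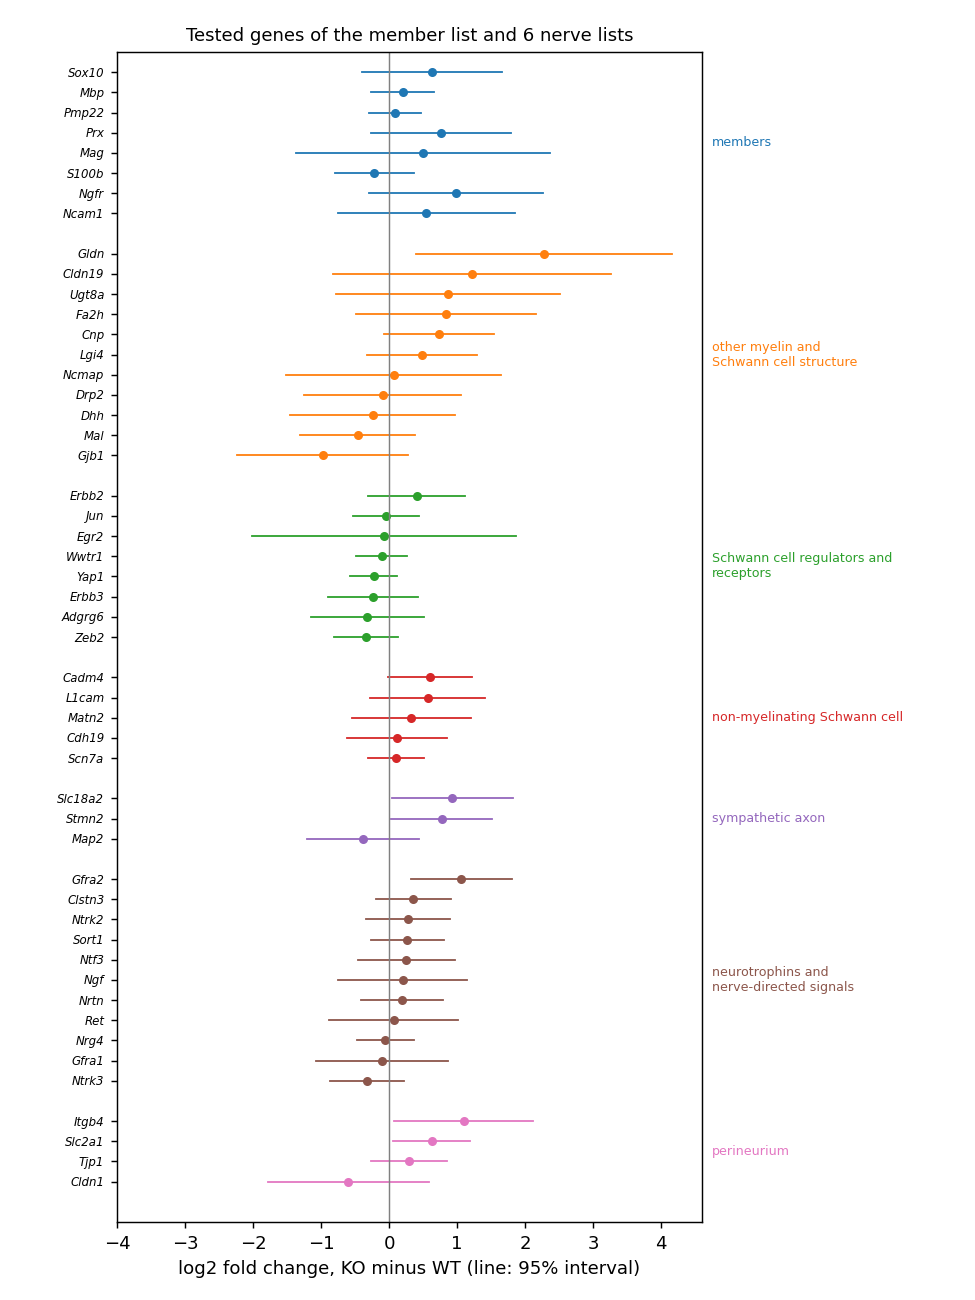
Log2 fold change, KO minus WT (horizontal axis), with its 95% interval for tested genes of the member list and 6 nerve lists (rows, coloured by list; 2 tested genes are not drawn). All 8 member intervals include 0; Gldn, Slc18a2, Stmn2, Gfra2, Itgb4 and Slc2a1 have intervals above 0 before adjustment.

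The members did not vary as 1 block over the 6 libraries. On log2 CPM, Sox10 and Prx varied alike (Pearson r = 0.95 over 6 libraries), and so did Ngfr and Ncam1 (0.93) and Sox10 and Pmp22 (0.88). S100b went against Ngfr (-0.89), Ncam1 (-0.86) and Sox10 (-0.61). Prx followed Gldn (0.90) and so did Sox10 (0.89), whereas S100b stood at -0.50 with Gldn. S100b followed Cidea (0.94), a lipid droplet gene of brown adipocytes, and was at 0.69 with Adipoq, another brown adipocyte marker. Mbp and Mag were at 0.71 with each other. These correlations are across 6 libraries of both genotypes that share their depth and composition differences. Gldn, Cidea and Adipoq were picked as partners after values had been seen. The number of Sox10 counts for 1 S100b count was 0.0192, 0.00647 and 0.0215 in WT and 0.0168, 0.0233 and 0.0461 in KO. For Prx and Mbp, the number of Prx counts for 1 Mbp count lay between 0.0336 in WT 2 and 0.133 in KO 3.

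**Figure D4:**
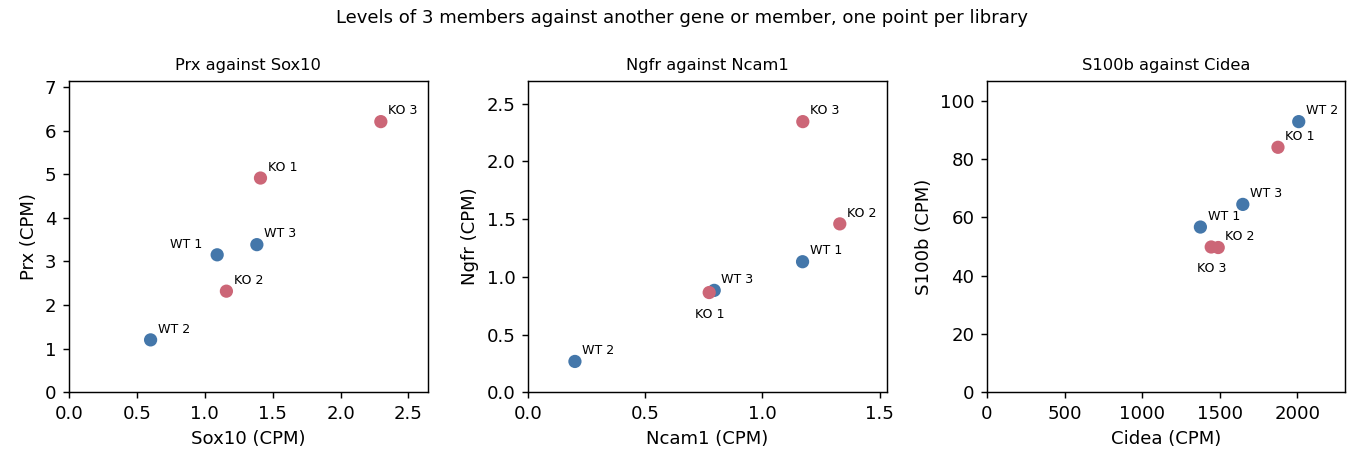
Level of Prx against Sox10, of Ngfr against Ncam1 and of S100b against Cidea, in CPM on both axes, with 1 point for each library (blue WT, red KO). WT 2 is at the low end of the first 2 panels and KO 3 at the high end for Prx, Sox10 and Ngfr, while for S100b WT 2 and KO 1 are at the high end.

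The heat map of nerve genes sets these values side by side. WT 2 was the lowest library for 19 of the 44 tested nerve genes and KO 3 the highest for 22 of 44. In the myelin and Schwann cell structure list each was so for 7 of 13 genes. Of all tested genes, WT 2 was lowest for 27.1% and KO 3 highest for 26.5%. Gjb1 and Mal went the other way, with WT 2 as their highest library.

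**Figure D5:**
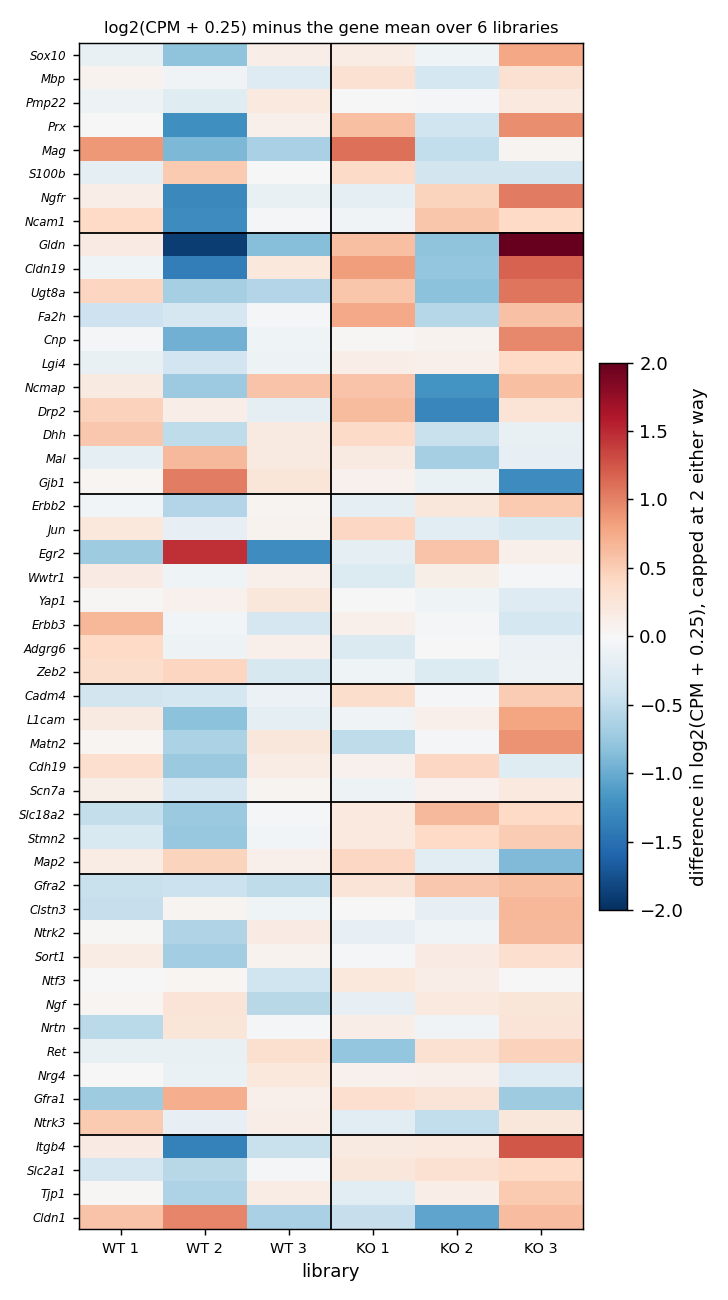
Log2(CPM + 0.25) minus the mean of the gene over 6 libraries (colour, capped at 2 either way), for the members (top block) and tested genes of 6 nerve lists (rows; 2 tested genes are not drawn) in each library (columns; WT left, KO right). Gldn runs from deep blue in WT 2 to deep red in KO 3, while S100b, Mal and Gjb1 show the opposite colours in these libraries.

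Markers of other cell types varied over the same libraries, and their part in the nerve genes was not tested. Summed endothelial markers, all 10 of which were tested and positive, ran from 447 CPM in WT 2 to 740 in WT and from 537 to 1007 CPM in KO 3. Pericyte and smooth muscle markers (9 of 10 positive) ran from 446 to 632 CPM in WT and from 505 to 723 CPM in KO. Fibroblast and preadipocyte markers (7 of 10 positive) ran from 521 to 614 CPM in WT and from 591 to 619 CPM in KO. Markers of T, NK and B cells, of which 7 of 12 were tested and all 7 were positive, ran from 6.68 to 11.1 CPM in WT and from 15.3 to 20.8 CPM in KO. Macrophage markers (2 of 8 positive) ran from 90.6 to 151 CPM in WT and from 71.9 to 131 CPM in KO. Brown adipocyte markers (2 of 8 positive) ran from 13749 to 17035 CPM in WT and from 15682 to 17989 CPM in KO. Skeletal muscle markers were positive for 1 of 9 tested genes of 12. Across these 7 lists edgeR called 0 genes at an adjusted p of 0.05. At an unadjusted p under 0.05 it called 5 of 10 pericyte and smooth muscle genes higher, 2 of 10 endothelial genes higher, and 1 gene higher in each of the fibroblast, lymphocyte and brown adipocyte lists. It called 1 of 9 skeletal muscle genes lower and 0 of 8 macrophage genes. Of all genes, 6.3% were called higher and 5.49% lower at that level. Groups did not overlap, with KO above WT, for 3 of 10 pericyte and smooth muscle genes and 2 of 7 lymphocyte genes. The same held for 1 gene in each of the endothelial, fibroblast and brown adipocyte lists, against 10.1% of all genes. With KO below WT it held for 1 fibroblast and 1 brown adipocyte gene, against 9.39% of all genes.

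Mbp and Mag are also genes of oligodendrocytes, the myelin cells of the brain and spinal cord. Of 5 oligodendrocyte markers, chosen after the values were seen, Opalin had 0 counts in all 6 libraries, Olig2 had 1, Mobp had 2 and Mog had 15. Olig1 had 154 counts, at 0.889, 2.80 and 1.32 CPM in WT and 0.773, 0.558 and 0.733 CPM in KO (log2 -1.25, SE 0.52, edgeR adjusted p = 0.415).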

How the data were processed

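Poly(A) RNA of brown fat was sequenced, and 3 WT and 3 KO libraries have a column in the table. The authors deposited unnormalized whole-number counts for each gene. The tools and build named in the submitters' processing notes are featureCounts 1.6.2, HISAT2 2.1.0, mm10 and DESeq2; strand setting and annotation release: not given in the sources used here. Of 53715 identifiers, 53620 had a symbol, and coordinates and exon lengths came from GENCODE M21 on the same build. Total counts ran from 18034204 to 33617762. Identical columns numbered 0, and libraries of a group differed by more than sampling noise.

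The filterByExpr rule (minimum count 10, total 15) left 15123 genes holding 99.9% of counts. KO minus WT was fitted in edgeR, with its quasi-likelihood test, TMM factors and genotype as the only term (edgeR 4.0.16, R 4.3.3), adjusted by Benjamini-Hochberg over all tested genes. SE is the absolute log2 fold change divided by the square root of F, and 95% intervals use the total degrees of freedom. The test was tested on simulated data. Correlations used log2 CPM with a prior count of 2, and the heat map a pseudocount of 0.25.

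Members and lists were chosen with earlier results of these data known. Some items of the nerve lists are counted but not reported here by name. Named nerve genes were otherwise up to 4 per list with an unadjusted p under 0.05, or the 2 of highest mean CPM where there were none. Alternatives were DESeq2 1.42.0, limma-voom (limma 3.58.1), other filters, scaling and thresholds, a replicate block, a robust fit, sample weights and libraries left out. DESeq2 on the filtered genes and a fit with no TMM factor were added after seeing the data. The nearest-profile genes were the 5 of highest correlation with the members' mean. Figures were made with Python 3.11.15 and matplotlib 3.10.9.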

Additional observations from a re-analysis of the deposited data

How the results depend on the processing

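In 18 alternative fits, 0 members with an adjusted p passed an adjusted p of 0.05 or 0.1, the adjusted p running from 0.370 to 0.995. Directions held except for S100b without WT 2 (0.012) or with KO 3 also left out (0.14), Pmp22 under the same settings (-0.0033 and -0.075) and Mag without KO 1 (-0.34). With 1 library left out S100b ran from -0.51 to 0.012, Pmp22 from -0.0033 to 0.23, Mag from -0.34 to 1.89, Scn7a from -0.024 to 0.19 and Matn2 from -0.19 to 0.61. Wwtr1 reversed with no TMM factor (0.056), which moved the median of all genes to 0.16. Scn7a reversed without WT 2 (-0.024) and with KO 3 also out (-0.087), and Matn2 without KO 3 (-0.19), without both (-0.40) and with sample quality weights (-0.13). The cause was not tested.

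Over all genes edgeR called 9. Counts were 168 with DESeq2, 187 with DESeq2 on the filtered genes, 663 with no filter, 5 with the replicate block, 27 without both WT 2 and KO 3 and 21 with sample quality weights, and 0 to 17 with 1 library left out. The lowest of these came without KO 2 and the highest without WT 2; without KO 1 the count was 1. With no filter 2 nerve genes were called, Gldn among them; there the median total degrees of freedom were 111496, against 9.61, so their p-values rest little on their own spread. Same-numbered WT and KO libraries had deviations correlated at -0.11, 0.10 and 0.09, and libraries of different number at -0.26 to 0.25. Deviations from means of 3 libraries cannot show whether same-numbered samples were paired. The replicate block called 0 members. Mag was not tested with the stricter filter, and its adjusted p was missing (NA) when DESeq2 was run after filtering. At an unadjusted p under 0.05, 1 member, Prx, passed with no filter, without KO 2 and with the replicate block (edgeR adjusted p = 0.370 there); in the other fits 0 did. Pgam5 kept its direction in all 18 fits, with an adjusted p of up to 0.165; it missed 0.05 without WT 1, WT 3, KO 1 or KO 2, with limma-voom and with the replicate block. Counting error alone was up to 70.7% of the value for Mag in WT 2 and at most 4.32% for Mbp, Pmp22 and S100b. With 3 libraries in each group, the intervals given are the limit on what could be detected.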

Other observations

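Of 13215 other genes with a mean of at least 1 CPM, those whose log2 CPM over the 6 libraries was most like the mean standardized level of the 8 members were Abcd4 (r = 0.99), Grik5 (0.99), Kmt5c (0.99), Sec31b (0.99) and Lag3 (0.99). Abcd4, an ABC transporter gene of lysosomal vitamin B12 handling, was at 29.9, 21.7 and 29.6 CPM in WT and 34.5, 25.8 and 37.0 CPM in KO. Their order of libraries was WT 2 at the low end and KO 3 or KO 1 at the high end, and 0 of the 5 passed the edgeR test at an adjusted p of 0.05 or at an unadjusted p of 0.05. With 6 libraries and this many genes, correlations of this size are the top of a long ranking and are given as a description only.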
